A study of Mus musculus with 12 samples.

Results

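The smooth muscle contractile apparatus was followed through 10 genes: Tagln, Cnn1, Cnn2, Cnn3, Myh11, Myl9, Tpm1, Tpm2, Cald1 and Smtn. They were picked by name, and all 10 were found, each in 1 row, among the 23358 rows of the deposited gene table. All 10 also passed the filter on low counts that left 13534 rows for testing. The cells were bone marrow-derived mesenchymal stem cells of the mouse, adherent stroma from which bone, fat and cartilage cells can form. In the CytoD+CK group they received both cytochalasin D and CK666, in the CK group CK666 alone, in the CytoD group cytochalasin D alone, and in the Ctrl group neither. Cytochalasin D, made by fungi, blocks growth of actin filaments at their fast ends, and CK666 inhibits the branch-forming Arp2/3 complex. All groups shared the same culture, with 10% serum, plating at 10000 cells per square centimetre and 1 day of growth, after which treatment lasted 24 h. There were 3 libraries in each of the 4 groups. The sources used here give no compound doses, mouse strain or age. Nor do they say whether the replicates are separate animals or cultures, so p-values measure only a spread that may be technical.

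In smooth muscle, force comes from myosin filaments that pull on actin filaments. Myosin heavy chain 11 and the regulatory light chain Myl9 belong to the motor. Tropomyosins lie along the actin filament, and calponins and caldesmon bind it and restrain the motor. Transgelin and smoothelin also bind actin. Most of these proteins are not exclusive to muscle: cultured stromal cells carry several of them on stress fibres. Many of the genes are known targets of serum response factor (SRF), which binds a DNA element called the CArG box together with myocardin or its relatives, the MRTFs. MRTFs are held in the cytoplasm by monomeric actin.

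Promoter sequences are shown because 9 of these genes were lower together in the treated cells, and because the CArG box is the element best known from this gene group. RefSeq entries on GRCm38.p6 were matched for 8 of the 10 genes, with 9 start sites. The 250 bases upstream of each start were searched on both strands. Tagln and Myh11 had no entry, so their promoters were not searched. A full CArG box was present in 1.47% of 32851 such windows over all genes and in the windows of 2 genes here, Myl9 and Cnn2. A version 1 letter off the full box was present in 17.5% of all windows and in those of Myl9, Tpm1 and the upstream start of Cald1. The Myl9 window was chr2:156775214-156775463 on the plus strand, the Cnn2 window chr10:79988350-79988599 on the plus strand and the Tpm1 window chr9:67049214-67049463 on the minus strand. Each runs 5′ to 3′ toward the start site, and capitals mark the full box in Myl9 (the first) and Cnn2, and the versions 1 letter off in Myl9 (the second) and Tpm1 (both):
Myl9: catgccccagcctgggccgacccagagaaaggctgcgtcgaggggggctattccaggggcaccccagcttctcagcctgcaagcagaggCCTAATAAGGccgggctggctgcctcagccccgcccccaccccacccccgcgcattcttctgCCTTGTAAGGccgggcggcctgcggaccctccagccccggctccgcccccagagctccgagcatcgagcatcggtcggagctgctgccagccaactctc
Cnn2: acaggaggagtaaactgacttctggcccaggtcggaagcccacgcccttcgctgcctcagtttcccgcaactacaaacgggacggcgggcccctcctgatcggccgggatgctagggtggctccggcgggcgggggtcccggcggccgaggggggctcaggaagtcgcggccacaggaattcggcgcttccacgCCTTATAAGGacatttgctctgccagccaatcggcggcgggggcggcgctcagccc
Tpm1: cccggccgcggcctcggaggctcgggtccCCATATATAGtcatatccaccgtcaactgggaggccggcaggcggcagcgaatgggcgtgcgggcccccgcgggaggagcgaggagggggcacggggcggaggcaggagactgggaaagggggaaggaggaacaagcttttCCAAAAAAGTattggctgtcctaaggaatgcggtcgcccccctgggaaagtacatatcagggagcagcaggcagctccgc
The full box lay 161 to 152 bases upstream of the Myl9 start (CCTAATAAGG) and 56 to 47 bases upstream of the Cnn2 start (CCTTATAAGG). In Tpm1 the near matches lay 221 to 212 and 80 to 71 bases upstream. Of the other motifs searched, CATTCC, the MCAT element bound by TEAD factors, was in 12.6% of all windows and in those of Cald1, Tpm1 and Smtn. TATAAA was in 12.4% of all windows and in that of the downstream start of Cald1. GGGCGG was in 32.7% of all windows and in those of 6 of these genes. A match in these letters is a description of the window only.

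Each library held between 48930210 and 69269716 counts, so a count of 0 allowed at most 3 counts, or 0.0423 to 0.0634 CPM (counts relative to the scaled library total), counting error only. This limit takes each count as independent. Every count was even, and if each fragment gave 2 counts the limit would be higher. Levels below are CPM scaled by the TMM method, with the SD over n = 3 libraries. Replicate 3 of the CK group stood apart from its group: its median absolute log2 difference over genes was 0.289 and 0.276 from CK replicates 1 and 2, against 0.126 between those, and 0.0771 to 0.141 within the other groups. Values without this library are also given where leaving it out ended a call or moved a difference by much. The labelled cell type was checked against 9 marrow stromal markers, and 8 of them had counts in every library, led by Cxcl12 at 5462 CPM or more, but Lepr and Nt5e did not exceed 1.27 and 0.813 CPM, and Thy1 did not exceed 0.0788 CPM. Other cell types were checked too. The 12 smooth muscle and pericyte markers, which include Tagln, Cnn1, Myh11 and the dominant Acta2, summed to 611 to 742 CPM in CytoD+CK, 865 to 1158 CPM in CK and 820.5 to 841 CPM in CytoD, against 3576 to 3709 CPM in Ctrl. Of the 11 tested, 4 were lower and 2 higher with both compounds, 6 lower and 1 higher with CK, and 4 lower and 2 higher with CytoD. Over all tested genes, 21.6%, 18.7% and 18.9% were lower and 24.4%, 22.5% and 19.1% higher, in that order. Each count of 2 higher was 1 when certain single libraries were left out: CytoD+CK replicate 2 or 3 or Ctrl replicate 1 or 2 with both compounds, and CytoD replicate 1 or 3 or Ctrl replicate 1 or 2 with CytoD. Mcam, an adhesion molecule of pericytes and stroma, went against the contractile genes, at 28.5, 44.01 and 42.4 CPM in CytoD+CK and 5.08, 17.02 and 16.3 CPM in CK, against 0.774, 1.18 and 0.864 CPM in Ctrl (log2 5.35 ± 0.44 and 3.77 ± 0.43, adjusted p of 6.44e-07 and 2.09e-05). With CytoD it had 1.19, 1.91 and 2.09 CPM and did not pass the test (log2 0.90 ± 0.48, adjusted p = 0.164). Summed CPM of 6 leukocyte markers was 5.84 to 6.77 in CytoD+CK, 4.53 to 5.98 in CK, 7.98 to 9.58 in CytoD and 5.29 to 6.19 in Ctrl, with Ptprc and Emr1 at 0 in every library. The 5 endothelial markers summed to at most 0.604 CPM with Emcn at 0, and the 5 erythroid markers to at most 0.0353 CPM with all 4 globin rows at 0. The 8 adipocyte markers all had counts in every library. All 8 were higher in each treatment, beside 24.4%, 22.5% and 19.1% of all tested genes with both compounds, CK and CytoD. With CytoD the count was 7 without CytoD replicate 3 or Ctrl replicate 1 or 2. The summed CPM of these markers was 8727 to 11021 in CytoD+CK, 6899 to 8878 in CK and 7851 to 8199 in CytoD, against 3099 to 3710.0 in Ctrl. Lpl made up most of each sum, with means of 7424, 5886, 7412 and 3095 CPM in that order. Set against CytoD, CK had 7 of the 8 markers higher and 1 lower, beside 22.9% and 16.8% of all tested genes. The part of fat-like cells in the falls described here was not tested, and fewer contractile cells and less RNA per cell cannot be told apart in bulk RNA.

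The contractile genes were lower in every treatment. Together they held 0.228% ± 0.0126 of all counts in CytoD+CK, 0.257% ± 0.00574 in CK and 0.305% ± 0.00365 in CytoD, against 0.498% ± 0.00844 in Ctrl (SD, n = 3 each). In each of the 3 treatments 9 of the 10 genes were called lower at an adjusted p under 0.05 (edgeR's quasi-likelihood test, adjusted over all tested genes) and none higher. Among all tested genes, 21.6% were called lower with both compounds, 18.7% with CK and 18.9% with CytoD. Those called higher were 24.4%, 22.5% and 19.1%, which makes 46.0%, 41.1% and 37.9% in either direction. Without CK replicate 3 the falls with CK ranged from 1.66-fold (Cald1) to 4.84-fold (Cnn1), and all 9 were still called. The median log2 fold change of the 10 genes against Ctrl was -1.52 with both compounds, -1.07 with CK and -1.15 with CytoD, beside 0.04, 0.03 and 0.02 over all tested genes. The same 9 genes had every treated library below every Ctrl library in each treatment, a pattern found in 29.2%, 23.4% and 30.3% of all tested genes for both compounds, CK and CytoD. The exception was Myh11. These 3 comparisons share the Ctrl libraries.

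**Figure D1:**
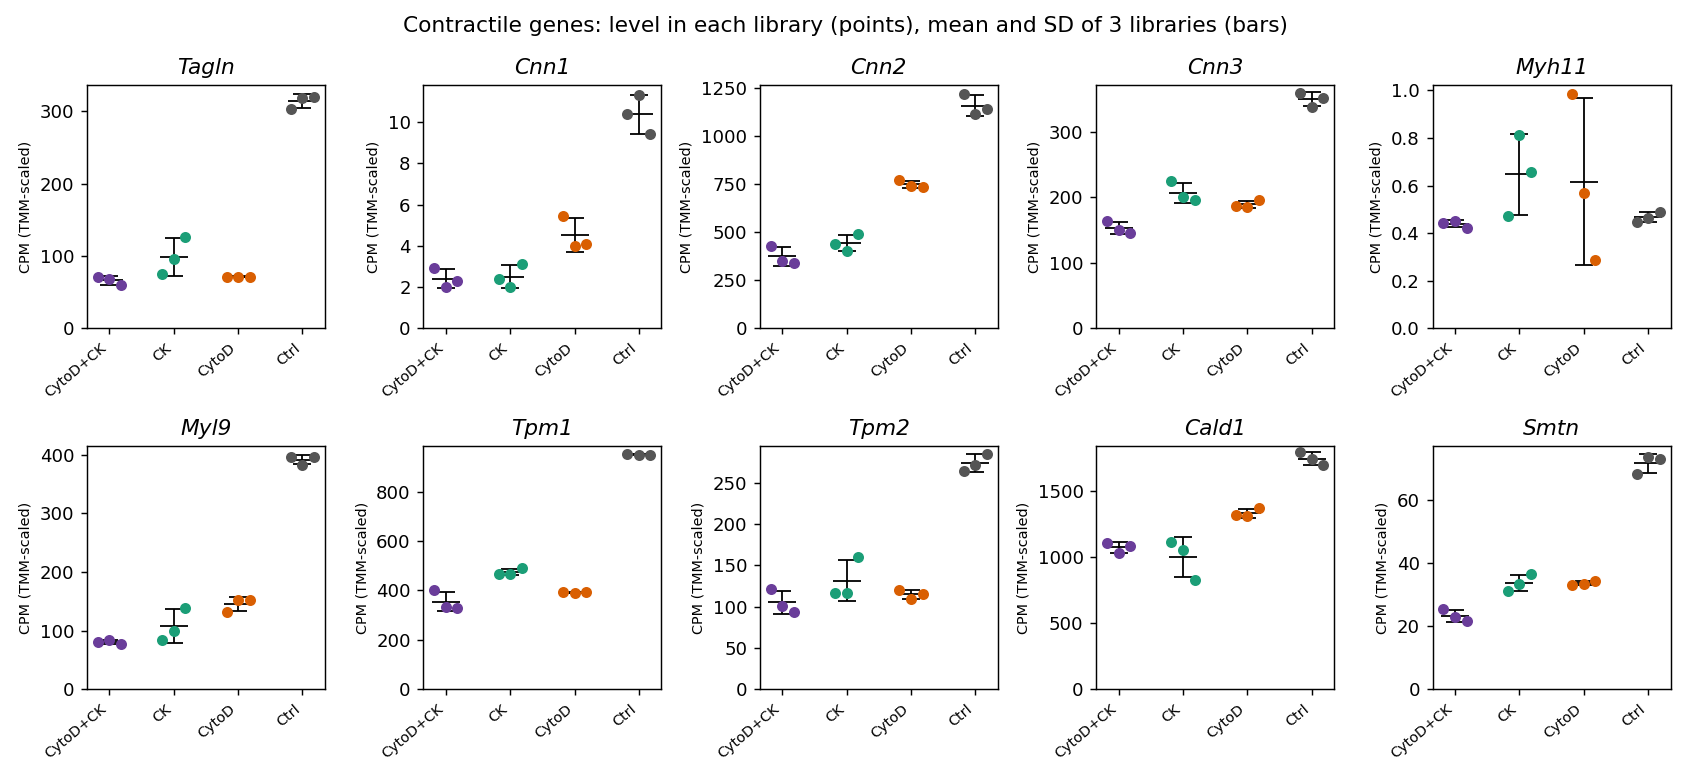
Level of each contractile gene in CPM (TMM-scaled, linear axes from 0) in the 3 libraries of CytoD+CK, CK, CytoD and Ctrl. Points are libraries, long bars means and short bars the SD. The Ctrl libraries sit above all treated ones for every gene but Myh11, and the CK points of Tagln and Myl9 are widely spread.

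Compared per length, with the RPKM values the authors deposited, Cnn2 stood highest of the 10 in Ctrl at 546 ± 27.2 RPKM, followed by Cald1 (364 ± 12.1 RPKM), Myl9 (304 ± 4.69 RPKM) and Tpm1 (244 ± 2.19 RPKM). Tagln had 166 ± 4.49, Cnn3 147 ± 4.39 and Tpm2 109.7 ± 3.67 RPKM. Much lower were Smtn (17.7 ± 0.720 RPKM), Cnn1 (4.39 ± 0.431 RPKM) and Myh11 (0.0592 ± 0.00222 RPKM; SD, n = 3 each). Libraries of neighbours in this order did not overlap. The genes best known as smooth muscle markers were thus not equally present: transgelin and Myl9 were abundant, while calponin 1 was scarce and the muscle myosin heavy chain near the detection floor. In each treatment the mean of Tagln ranked below 6 of the others instead of 4. In CytoD+CK it had 36.9 ± 3.10 RPKM, below Cnn3 (67.4 ± 3.48 RPKM) and Tpm2 (44.3 ± 5.49 RPKM). In CytoD it had 39.4 ± 0.926 RPKM, below Cnn3 (82.7 ± 1.79 RPKM) and Tpm2 (47.9 ± 1.44 RPKM). In CK, Tagln (56.2 ± 14.3 RPKM) and Tpm2 (56.4 ± 10.1 RPKM) were nearly equal, below Cnn3 (93.3 ± 7.41 RPKM).

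Tagln encodes transgelin (SM22), an actin-binding protein that is an early marker of smooth muscle differentiation. It lies at chr9:45929628-45936058 on the minus strand of GRCm38. Its level was 71.1, 68.2 and 59.7 CPM in CytoD+CK, 74.5, 96.2 and 126 CPM in CK, and 71.7, 71.1 and 71.6 CPM in CytoD, against 304, 319 and 320.1 CPM in Ctrl. All treated libraries were far below Ctrl, and the CK libraries were the most widely spread. Tagln fell 4.73-fold with both compounds (log2 fold change -2.24 ± 0.15 SE, adjusted p = 9.93e-08), 3.17-fold with CK (-1.66 ± 0.14, adjusted p = 2.03e-06) and 4.40-fold with CytoD (-2.14 ± 0.15, adjusted p = 7.64e-07). Without CK replicate 3 the fall with CK was 3.79-fold. CK was called higher than CytoD (log2 0.47 ± 0.14, adjusted p = 0.0188), but without CK replicate 3 that difference was 0.23 with an adjusted p of 0.0782. Leaving out CytoD replicate 2 or 3 also ended that call, at adjusted p = 0.0563 and 0.0547. In the annotation, Tagln overlaps the gene Pcsk7, whose row held at most 2030 counts, and an antisense gene, Gm48529. Of the 50-base windows of its transcripts, 58.3% also occur in those of other genes, mostly Gm48529, and no source used here says whether counting used strand, so reads of the pair cannot be told apart. The relative Tagln2, which encodes a broadly expressed transgelin, was lower as well, at 135, 104 and 99.2 CPM in CytoD+CK, 155, 148 and 185 CPM in CK and 134, 123 and 123 CPM in CytoD, against 272, 282 and 296 CPM in Ctrl. Its log2 changes were -1.33 ± 0.12, -0.80 ± 0.12 and -1.16 ± 0.12, with adjusted p of 1.19e-06, 0.00014 and 1.04e-05 in that order.

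The calponins bind actin and slow myosin; Cnn1 is the smooth muscle form, Cnn2 and Cnn3 are found in many cells. Cnn2 (chr10:79988600-79995400), whose full CArG box is printed above, carried most calponin RNA. It had 428, 351 and 342 CPM in CytoD+CK, 440.1, 403 and 489 CPM in CK and 769, 739 and 736 CPM in CytoD, against 1219, 1111 and 1141 CPM in Ctrl. CytoD libraries stood between Ctrl and the groups with CK666, and those groups overlapped each other. Cnn2 fell 3.10-fold with both compounds (log2 -1.63 ± 0.09, adjusted p = 4.08e-08), 2.61-fold with CK (-1.38 ± 0.09, adjusted p = 3.01e-07) and 1.55-fold with CytoD (-0.63 ± 0.09, adjusted p = 0.000195).

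Cnn1 (chr9:22099253-22109221) followed the same order at a far lower level. It had 2.92, 2.003 and 2.29 CPM in CytoD+CK, 2.40, 2.01 and 3.13 CPM in CK and 5.47, 3.99 and 4.08 CPM in CytoD, against 10.4, 11.3 and 9.43 CPM in Ctrl. Again the groups with CK666 were lowest and overlapped each other. The falls were 4.33-fold, 4.10-fold and 2.30-fold, with log2 changes of -2.11 ± 0.19, -2.04 ± 0.19 and -1.20 ± 0.18 and adjusted p of 1.48e-06, 3.79e-06 and 0.000232.

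Cnn3 (chr3:121426541-121458205) changed least of the calponins with CK and with both compounds, while with CytoD Cnn2 did. Its level was 164, 149.7 and 146 CPM in CytoD+CK, 225, 201 and 196 CPM in CK and 187, 185 and 196 CPM in CytoD, against 359, 338 and 352 CPM in Ctrl. The single treatments were alike in level and the combination lowest. Cnn3 fell 2.28-fold with both compounds (log2 -1.19 ± 0.07), 1.69-fold with CK (-0.76 ± 0.07) and 1.85-fold with CytoD (-0.89 ± 0.07), with adjusted p of 5.63e-08, 4.40e-06 and 2.11e-06. Of its 50-base windows 24% recur elsewhere, in Gm42928 and in the processed pseudogenes Gm4815 and Gm17936, so its reads may be split.

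As a share of summed calponin RPKM, Cnn2 made up 72.9% ± 1.19 in CytoD+CK, 70.3% ± 2.66 in CK and 81.3% ± 0.637 in CytoD, against 78.3% ± 0.403 in Ctrl. Cnn3 made up 26.7% ± 1.22, 29.3% ± 2.72 and 18.3% ± 0.686 in those treatments, against 21.1% ± 0.398 in Ctrl (SD, n = 3 each). The balance thus stood on opposite sides of Ctrl in CK and in CytoD: Cnn2 held 10.9 percentage points less of the calponin RNA in CK than in CytoD, with no overlap of libraries. The exact permutation test (2-sided) gave p = 0.1 for this and for each of those shares against Ctrl, the smallest p that 3 against 3 libraries allow.

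**Figure D2:**
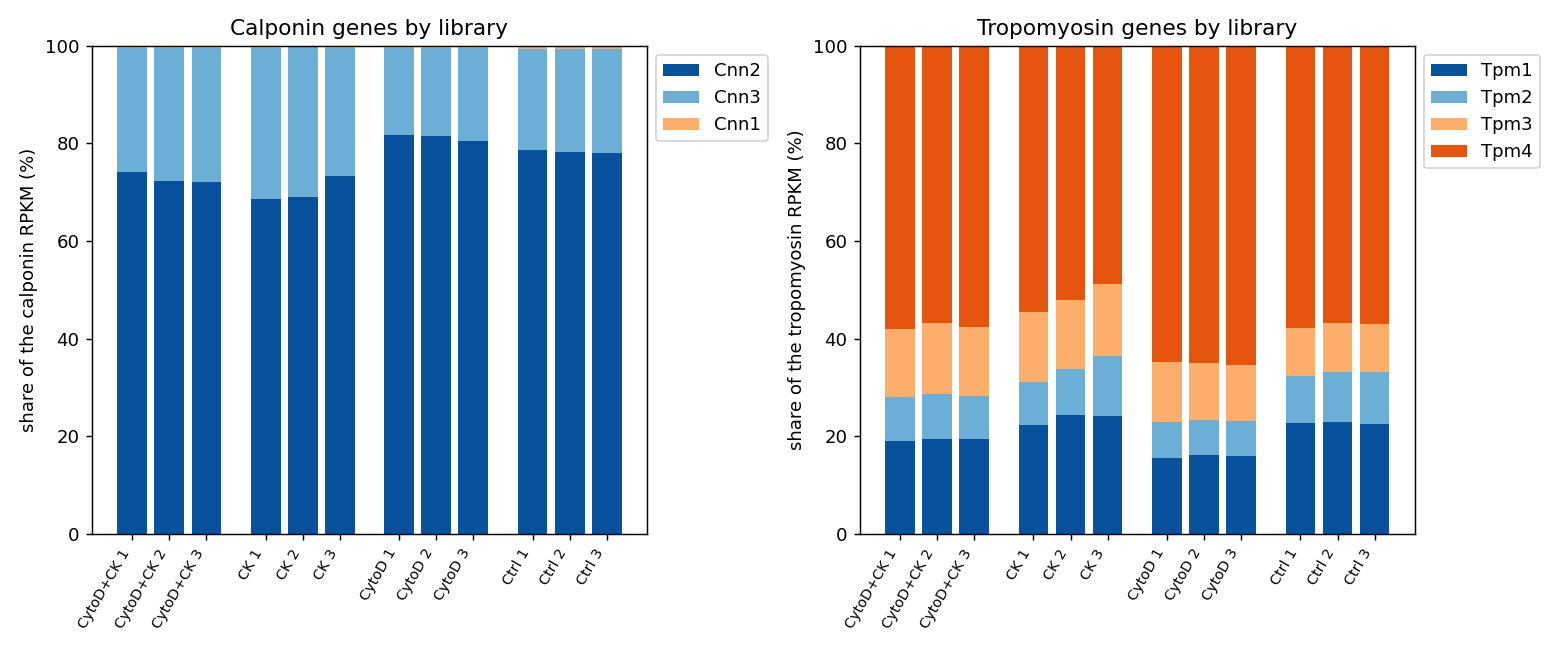
Share of each gene in the summed RPKM of its family (%, stacked bars, 1 bar a library) for the 3 calponin and the 4 tropomyosin genes, in CytoD+CK, CK, CytoD and Ctrl. Cnn2 holds less of the calponin total in CK and CytoD+CK than in Ctrl and more in CytoD. Tpm4 holds the largest share of the tropomyosin total in every group, and that share is highest in CytoD.

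Tropomyosins are rod-shaped dimers that line actin filaments and control access of myosin. Tpm1 (chr9:67022593-67049213, minus strand), with the pair of near CArG matches shown above, had 400.5, 333 and 331 CPM in CytoD+CK, 467, 465 and 489 CPM in CK and 394, 388 and 392 CPM in CytoD, against 955, 949 and 949 CPM in Ctrl. Here CK was the highest of the treated groups, in every library. Tpm1 fell 2.68-fold with both compounds (log2 -1.42 ± 0.07, adjusted p = 2.13e-08), 2.01-fold with CK (-1.01 ± 0.07, adjusted p = 5.37e-07) and 2.43-fold with CytoD (-1.28 ± 0.07, adjusted p = 2.41e-07). Between CK and CytoD it was called higher in CK by 0.28 ± 0.07 (adjusted p = 0.0098), and by 0.22 without CK replicate 3 (adjusted p = 0.0217).

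Tpm2 (chr4:43514712-43523388, minus strand) had 121, 101 and 94.0 CPM in CytoD+CK, 117, 117 and 160.0 CPM in CK and 121, 109 and 115 CPM in CytoD, against 264, 272 and 286 CPM in Ctrl. The treated groups overlapped each other, with CK replicate 3 alone above 121 CPM. The falls were 2.60-fold, 2.08-fold and 2.38-fold (log2 -1.38 ± 0.12, -1.06 ± 0.12 and -1.25 ± 0.12; adjusted p of 1.45e-06, 2.30e-05 and 9.12e-06). The other tropomyosin genes, Tpm3 and Tpm4, which supply nonmuscle filaments, were lower too: Tpm3 by -0.64 ± 0.08, -0.51 ± 0.08 and -0.50 ± 0.08, and Tpm4 by -1.18 ± 0.09, -1.20 ± 0.09 and -0.58 ± 0.09 on the log2 scale with both compounds, CK and CytoD, all at an adjusted p of 0.000423 or less.

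The family did not move as a block. Of the summed tropomyosin RPKM, Tpm1 held 19.3% ± 0.277 in CytoD+CK, 23.6% ± 1.03 in CK and 15.9% ± 0.334 in CytoD, against 22.7% ± 0.215 in Ctrl. Tpm4 held 57.4% ± 0.637, 51.8% ± 2.89 and 65.05% ± 0.282 in those treatments, against 57.2% ± 0.481 in Ctrl (SD, n = 3 each). CytoD libraries had a smaller Tpm1 share and a larger Tpm4 share than Ctrl with no overlap, while in CK the Tpm1 share overlapped Ctrl (exact permutation p = 0.4) and the Tpm4 share was below it (exact permutation p = 0.1, the smallest possible, 2-sided).

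Cald1 encodes caldesmon, which ties actin to myosin and inhibits the motor. Its row spans chr6:34709444-34775469, beginning at the downstream of the RefSeq starts; the other start lies 110940 bases upstream and outside the row. Cald1 had 1109.7, 1032 and 1082 CPM in CytoD+CK, 1113, 1057 and 829.9 CPM in CK and 1318, 1312 and 1370.4 CPM in CytoD, against 1797, 1742 and 1702 CPM in Ctrl. CytoD was intermediate, and CK replicate 3 was the lowest library. It fell 1.63-fold with both compounds (log2 -0.70 ± 0.09, adjusted p = 3.92e-05), 1.75-fold with CK (-0.81 ± 0.09, adjusted p = 2.03e-05) and 1.31-fold with CytoD (-0.39 ± 0.09, adjusted p = 0.00474). These were the smallest falls among the 9 called genes with both compounds and with CytoD. With CK the smallest was that of Cnn3, or that of Cald1 without CK replicate 3 (-0.73, against -0.76 for Cnn3).

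Smtn encodes smoothelin, an actin-binding protein of contractile smooth muscle. Located at chr11:3517522-3539292 on the minus strand, it had 25.4, 22.8 and 21.7 CPM in CytoD+CK, 31.1, 33.3 and 36.3 CPM in CK and 32.8, 33.4 and 34.1 CPM in CytoD, against 68.0, 73.5 and 72.8 CPM in Ctrl. The single treatments overlapped and the combination was below both. Smtn fell 3.07-fold with both compounds (log2 -1.62 ± 0.08, adjusted p = 1.30e-08), 2.13-fold with CK (-1.09 ± 0.08, adjusted p = 3.76e-07) and 2.14-fold with CytoD (-1.09 ± 0.08, adjusted p = 8.14e-07). The difference between CK and CytoD was 0.01 on the log2 scale, with a 95% interval from -0.16 to 0.17. Of its 50-base windows, 9.46% recur in the overlapping transcript Gm11946.

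Myl9 encodes the regulatory light chain of smooth muscle and stress fibre myosin, the subunit whose phosphorylation switches the motor on. Its row lies at chr2:156775464-156781657. Myl9 had 80.2, 83.0 and 76.5 CPM in CytoD+CK, 83.4, 99.7 and 139 CPM in CK and 132, 152 and 153 CPM in CytoD, against 396, 383 and 397 CPM in Ctrl. CK replicate 3 reached the CytoD range, while the other CK libraries stood near the combination. The fall with both compounds, 4.90-fold, was the largest of any of the 10 genes in that comparison (log2 -2.29 ± 0.15, adjusted p = 7.68e-08). With CK it was 3.65-fold (-1.87 ± 0.14, adjusted p = 7.77e-07), or 4.41-fold without CK replicate 3, and with CytoD 2.69-fold (-1.43 ± 0.14, adjusted p = 9.94e-06).

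Myh11 (chr16:14194527-14291408, minus strand), the heavy chain of smooth muscle myosin and its most specific marker, behaved differently. It drew 16 to 48 counts a library, above the limit of 3 but few. Its level was 0.444, 0.451 and 0.424 CPM in CytoD+CK, 0.473, 0.812 and 0.657 CPM in CK and 0.987, 0.570 and 0.289 CPM in CytoD, against 0.448, 0.465 and 0.488 CPM in Ctrl. Groups overlapped, and CytoD alone spanned the whole range. The log2 differences from Ctrl were -0.09 with both compounds (95% interval -0.93 to 0.76), 0.47 with CK (-0.35 to 1.29) and 0.38 with CytoD (-0.45 to 1.21). None was called. With so few counts, changes as large as either end of those intervals remain compatible with the data.

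**Figure D3:**
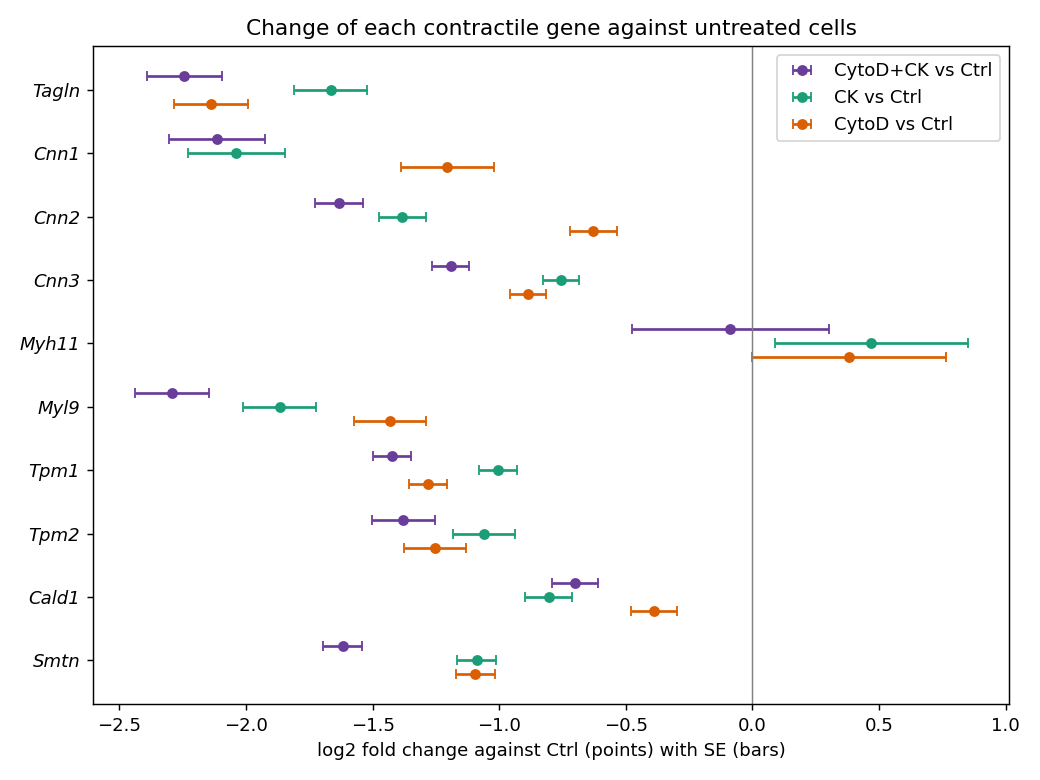
Log2 fold change against Ctrl of each contractile gene in CytoD+CK, CK and CytoD (points) with its SE (bars) from edgeR's fit. Apart from Myh11, all points lie left of 0. The CytoD points of Tagln and Tpm1 lie left of the CK points, and the CK points of Cnn1, Cnn2, Myl9 and Cald1 left of the CytoD points.

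Set directly against CytoD, CK had 2 of the 10 genes called higher and 4 called lower, where 22.9% of all tested genes were called higher and 16.8% lower (39.8% in either direction). Tagln and Tpm1 were the genes higher in CK. The calponins Cnn1 (log2 -0.83 ± 0.19, adjusted p = 0.00433) and Cnn2 (-0.75 ± 0.09, adjusted p = 6.05e-05) were lower in CK, as were Cald1 (-0.42 ± 0.09, adjusted p = 0.00334) and Myl9 (-0.44 ± 0.14, adjusted p = 0.0255). For Myl9 the CK and CytoD libraries overlapped; without CK replicate 3 its difference was -0.70 (adjusted p = 2.63e-05). Its call was lost without CK replicate 1 or 2 or CytoD replicate 2 or 3, at adjusted p between 0.0743 and 0.0853. Differences of Cnn3 (0.13, 95% interval -0.02 to 0.28) and Tpm2 (0.19, -0.07 to 0.46) were not called. Without CK replicate 3 the Tpm2 difference was -0.0040.

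Against CytoD alone, CytoD+CK had 6 genes lower and none higher, beside 14.3% of all tested genes lower, 15.8% higher and 30.1% called in either direction. These were Cnn2 (log2 -1.002 ± 0.09, adjusted p = 8.44e-06), Cnn1 (-0.91 ± 0.19, adjusted p = 0.00317), Myl9 (-0.86 ± 0.14, adjusted p = 0.000546), Smtn (-0.52 ± 0.08, adjusted p = 0.000246), Cald1 (-0.31 ± 0.09, adjusted p = 0.0207) and Cnn3 (-0.31 ± 0.07, adjusted p = 0.006). The Cald1 call was lost when CytoD+CK replicate 2 or 3 or CytoD replicate 1 or 3 was left out, at adjusted p of 0.0502 to 0.0822. Tagln (-0.11, 95% interval -0.41 to 0.20), Tpm2 (-0.12, -0.39 to 0.14) and Tpm1 (-0.14, -0.30 to 0.02) were not called, although Tpm1 was without CytoD+CK replicate 1 (-0.24, adjusted p = 0.0124).

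Against CK alone, CytoD+CK had 4 genes lower and none higher, beside 7.17% of all tested genes lower, 4.43% higher and 11.6% called in either direction. They were Tagln (log2 -0.58 ± 0.14, adjusted p = 0.0198), Smtn (-0.53 ± 0.08, adjusted p = 0.000697), Cnn3 (-0.44 ± 0.07, adjusted p = 0.00172) and Tpm1 (-0.42 ± 0.07, adjusted p = 0.00272). Fitted on these 2 groups alone, only Smtn kept its call. The Tagln difference was -0.35 without CK replicate 3 (adjusted p = 0.0262), and its call was lost without CytoD+CK replicate 2 or 3 (adjusted p = 0.0611 and 0.101). Cnn1 (-0.08, 95% interval -0.50 to 0.35) and Cald1 (0.10, -0.09 to 0.30) were not called. Cnn2 (-0.25, -0.45 to -0.05), Myl9 (-0.43, -0.73 to -0.12) and Tpm2 (-0.32, -0.58 to -0.06) had intervals below 0 but adjusted p of 0.0974, 0.0673 and 0.106. Without CK replicate 3 those differences were -0.16, -0.18 and -0.14, with adjusted p of 0.216, 0.145 and 0.322.

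Leaving aside Myh11, whose groups no call separates, the lowest mean was in CytoD+CK for 8 genes and in CK for Cald1. CytoD+CK was called lower than the next lowest group only for Cnn3 and Smtn. Without CK replicate 3, CytoD+CK differed from CK by 0.13 for Cnn1 and by -0.0002 for Cald1 on the log2 scale, neither called. The combination nevertheless stayed well short of the sum of the single falls. For Tagln that sum was -3.80 on the log2 scale and the measured change -2.24. For Myl9 they were -3.30 and -2.29, and for Tpm1 -2.29 and -1.42. The interaction, here the CytoD+CK against CK change less the CytoD against Ctrl change, was above 0 in 9 genes and called in 8, beside 6.63% of all tested genes called above 0, 7.67% below 0 and 14.3% in either direction. It was 1.56 ± 0.20 for Tagln (adjusted p = 0.000502), 1.13 ± 0.27 for Cnn1 (0.0153), 1.00 ± 0.20 for Myl9 (0.00587) and 0.94 ± 0.17 for Tpm2 (0.00393). Tpm1 (0.86 ± 0.10, adjusted p = 0.000324), Smtn (0.56 ± 0.11, adjusted p = 0.00479), Cald1 (0.49 ± 0.13, adjusted p = 0.024) and Cnn3 (0.45 ± 0.10, adjusted p = 0.0117) completed the 8. Without CK replicate 3 the interaction was larger for Tagln (1.80), Cnn1 (1.35), Myl9 (1.26), Tpm2 (1.13), Tpm1 (0.91) and Smtn (0.65). It was smaller for Cald1 (0.40) and Cnn3 (0.44). Cnn2 had 0.38 with a 95% interval from 0.10 to 0.66 and an adjusted p of 0.0708, and was called without CK replicate 3 (0.48, adjusted p = 0.00792).

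**Figure D4:**
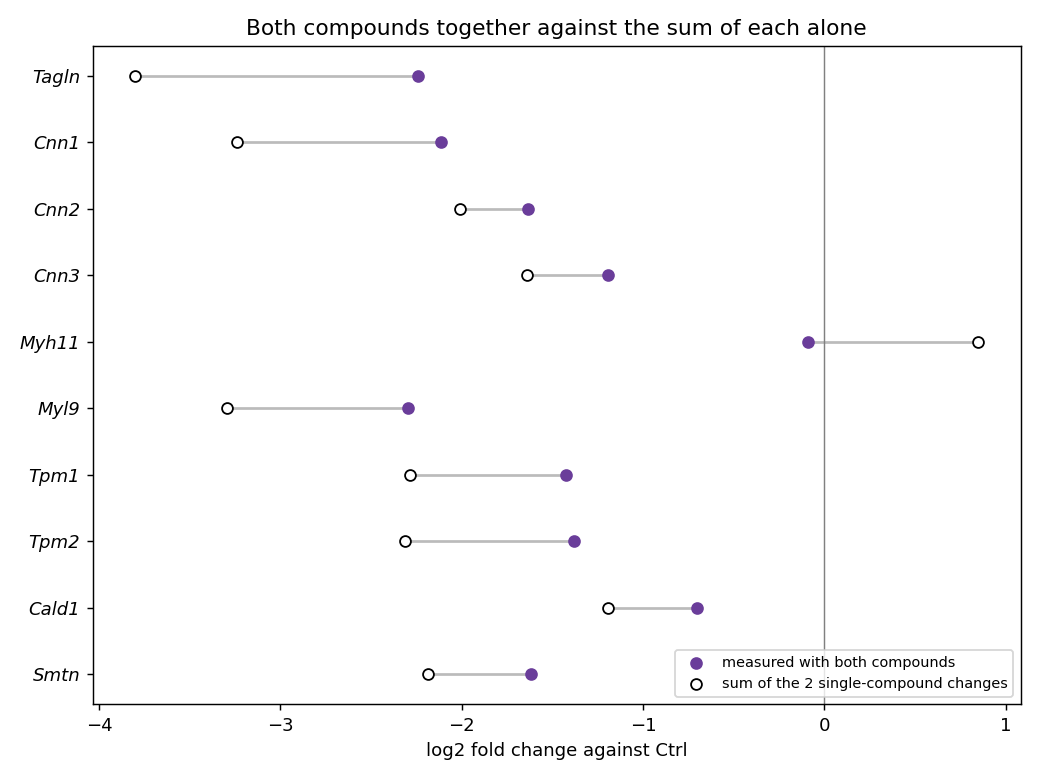
Log2 fold change against Ctrl measured with both compounds (filled points) and the sum of the changes with each compound alone (open points), for each contractile gene. The measured fall is the smaller for every gene but Myh11, with the widest gap in Tagln (-2.24 against -3.80).

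Other genes of smooth muscle contraction were counted from a list of 12, of which 11 were tested. With both compounds 6 were lower and none higher, with CK 7 lower and none higher, and with CytoD 4 lower and 2 higher. The matching shares of all tested genes were 21.6%, 18.7% and 18.9% lower and 24.4%, 22.5% and 19.1% higher. With both compounds 5 were lower without CytoD+CK replicate 1 or 3 or Ctrl replicate 1 or 2. With CK 6 were lower without Ctrl replicate 1 or 2, and 8 without CK replicate 2 or 3 or Ctrl replicate 3. The actin Acta2 had 419, 351 and 330.0 CPM in CytoD+CK, 595, 669.6 and 837 CPM in CK and 475, 502 and 515 CPM in CytoD, against 3005, 2999 and 3122 CPM in Ctrl. Its log2 changes were -3.05 ± 0.12, -2.12 ± 0.12 and -2.61 ± 0.12, with adjusted p of 4.63e-09, 6.23e-08 and 6.22e-08. The enteric actin Actg2 (-2.58, -1.95 and -2.23), the actin nucleator Lmod1 (-2.94, -1.89 and -1.83) and the LIM protein Csrp1 (-1.75, -1.33 and -1.70) were lower in all treatments. Mylk, the kinase that phosphorylates myosin light chains, had 176, 162 and 169 CPM in CytoD+CK, 189.5, 183 and 130.04 CPM in CK and 493, 543 and 537 CPM in CytoD, against 609, 565 and 546 CPM in Ctrl. It was lower with both compounds (-1.76 ± 0.12, adjusted p = 1.18e-07) and with CK (-1.77 ± 0.12, adjusted p = 2.72e-07), while the CytoD difference was -0.13 ± 0.11 (adjusted p = 0.406). The intermediate filament gene Des and the integrin Itga8 were the pair higher with CytoD, by 0.43 ± 0.10 (adjusted p = 0.00583) and 1.65 ± 0.30 (adjusted p = 0.000946). Acta1, the skeletal actin and the main signal among 11 striated muscle markers, moved the same way as Acta2: the list summed to 0.407 to 0.671 CPM in CytoD+CK, 1.14 to 2.72 CPM in CK and 0.493 to 0.705 CPM in CytoD, against 9.49 to 11.2 CPM in Ctrl, and Myh1, Myh2 and Myh6 were at 0.

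Of 6 further myosin chain genes, 6 were lower with both compounds, 4 with CK and 3 with CytoD, and none was higher. In these comparisons 21.6%, 18.7% and 18.9% of all tested genes were lower and 24.4%, 22.5% and 19.1% higher. With both compounds the count of lower myosin genes was 5 without CytoD+CK replicate 2 or 3 or Ctrl replicate 1 or 2. With CK it was 5 without CK replicate 2 or 3. Myh14, among the 6, had few counts: 8, 2 and 2 in CytoD+CK against 26, 18 and 6 in Ctrl. The nonmuscle heavy chain Myh9 had 1597, 1393 and 1279 CPM in CytoD+CK, 1496, 1537 and 1385 CPM in CK and 1756, 1679 and 1671 CPM in CytoD, against 2896, 2890.0 and 2937 CPM in Ctrl, with log2 changes of -1.03 ± 0.08, -0.98 ± 0.08 and -0.77 ± 0.08 (adjusted p of 3.82e-07, 1.11e-06 and 1.19e-05). Myh10, the other abundant heavy chain, was lower by -1.30 ± 0.10, -1.16 ± 0.10 and -0.92 ± 0.10. Among 11 genes of light chain kinase and phosphatase control, 3 were lower and 1 higher with both compounds, 5 lower and none higher with CK, and 2 lower and 1 higher with CytoD, beside the 21.6%, 18.7% and 18.9% of all tested genes that were lower. With both compounds 2 were lower without CytoD+CK replicate 1 or 3 or Ctrl replicate 1 or 2. With CK the count was 7 lower and 1 higher without CK replicate 3, and 3 lower without Ctrl replicate 2. With CytoD it was 1 lower without Ctrl replicate 3, and none was higher without CytoD replicate 2 or 3 or Ctrl replicate 2 or 3.

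From 8 transcription factors of the smooth muscle programme, 7 were tested, and 5 were lower with both compounds, 4 with CK and 4 with CytoD, with none higher. The shares over all tested genes were 21.6%, 18.7% and 18.9% lower and 24.4%, 22.5% and 19.1% higher. With CK the count of lower factors was 6 without CK replicate 3 and 5 without CK replicate 2. It was 3 without CK replicate 1 or Ctrl replicate 2 or 3. Srf, the CArG-binding factor, had 59.2, 62.2 and 59.1 CPM in CytoD+CK, 59.7, 93.1 and 92.3 CPM in CK and 63.1, 70.8 and 65.8 CPM in CytoD, against 99.2, 108 and 106 CPM in Ctrl. Every treated library was below Ctrl, with log2 changes of -0.79 ± 0.13, -0.35 ± 0.13 and -0.65 ± 0.13 and adjusted p of 0.000301, 0.0472 and 0.00193. Mkl1, which encodes an MRTF, was lower by -0.47 ± 0.09, -0.71 ± 0.09 and -0.36 ± 0.09, and Tead1, whose product binds MCAT elements, by -1.05 ± 0.17, -0.995 ± 0.17 and -0.68 ± 0.17. The CK libraries of Tead1 had 142, 141 and 76.0 CPM, and without the lowest, replicate 3, its change with CK was -0.79. Klf4, which encodes a factor known to repress smooth muscle genes, was lower too (-0.64, -0.60 and -1.19, each ± 0.09). Myocd, the myocardin gene, did not exceed 0.0814 CPM in any library and was not tested.

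Over the 12 libraries, the genes whose log2 CPM was most like that of Tagln, among 8808 tested genes at 10 CPM or more on average, were Csrp1 (Pearson r = 0.994), Actg2 (0.994), Acta2 (0.991), Itga5 (0.990) and Maea (0.989). For Tpm1 they were Acta2 (0.995), Basp1 (0.993), Csrp1 (0.992), Tubb6 (0.989) and Fbln2 (0.986). Cald1 had a set of its own, Enah (0.988), Oxr1 (0.986), Inhba (0.986), Dock5 (0.984) and Ncoa3 (0.984), whose mean CPM, like that of Cald1, was lower in CK than in CytoD. These values describe a profile dominated by the 4 group means and carry no test.

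**Figure D5:**
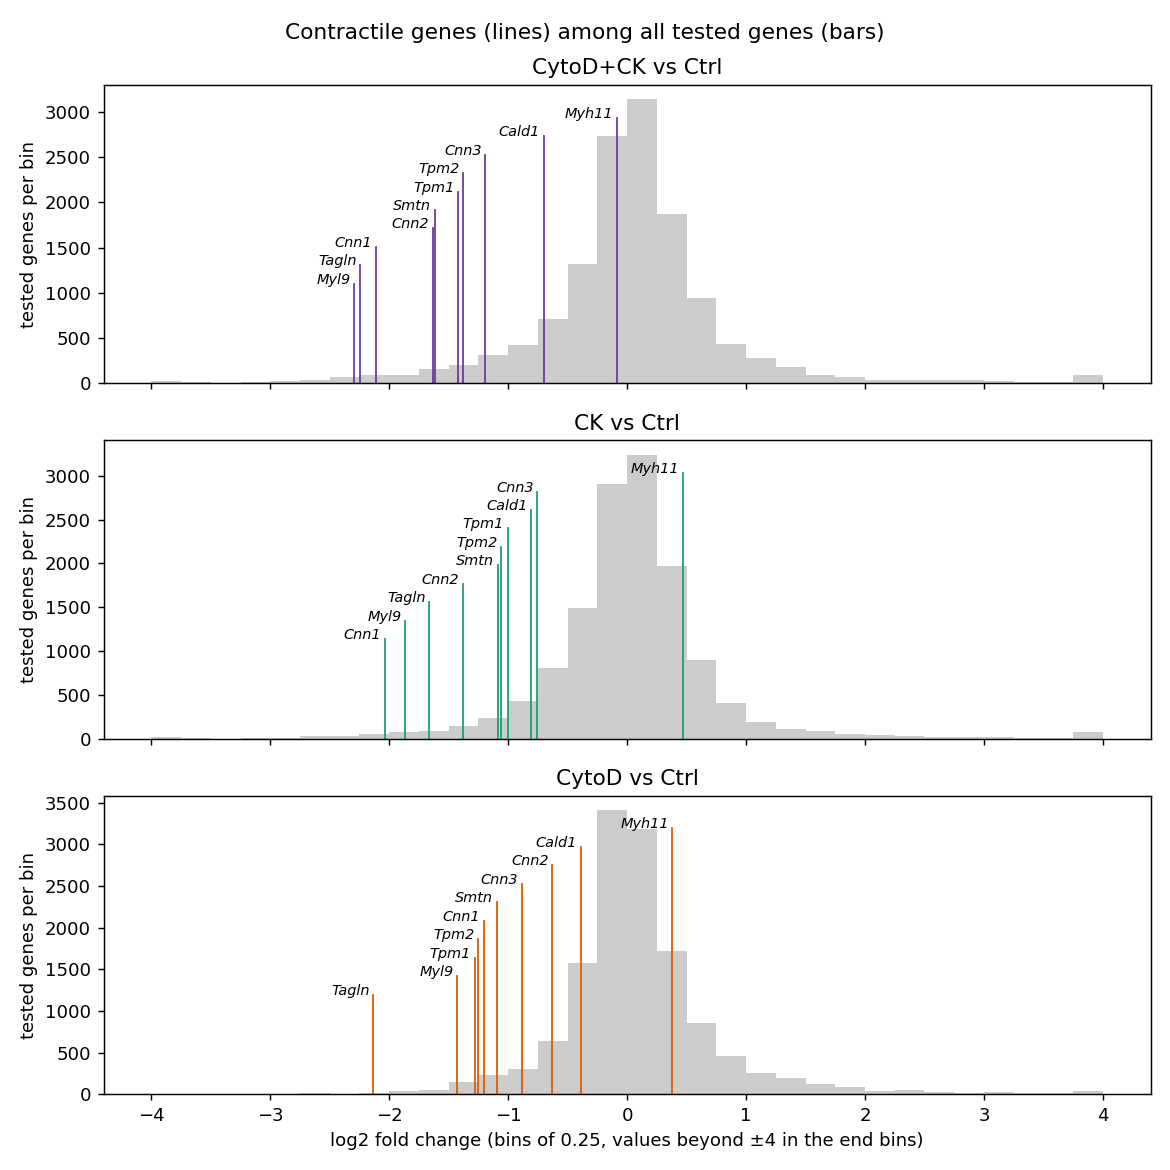
Number of tested genes per bin of log2 fold change against Ctrl (grey bars, bins of 0.25) in CytoD+CK, CK and CytoD, with the 10 contractile genes as labelled lines, whose heights have no meaning. Apart from Myh11, which lies near the bulk of the genes, every line is left of 0, most of them in the left tail.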

How the data were processed

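The count values are the authors' deposited reads per gene. Their RPKM values, deposited in the same table, were used to compare levels between genes and to compute the family shares, which were compared between groups. Per the submitters' processing notes, CASAVA 1.9, TopHat 12.0.6, HTSeq and the build hg19 were used, yet symbols and coordinates are those of mouse GRCm38. Every count was even (no odd count in the table), so counts may be 2 per fragment and halved counts were tried. Rows were kept with filterByExpr (minimum count 10), scaled by TMM and fitted in edgeR 4.0.16 (R 4.3.3) with 1 mean for each of the 4 groups. The 2-sided quasi-likelihood tests had p-values adjusted (Benjamini-Hochberg) in each of 7 comparisons, and the call was an adjusted p under 0.05. The SE is the log2 fold change over the root of F, and intervals are 95%. CPM carries no pseudocount; likeness used log2 CPM with a prior count of 2. Family shares were compared by exact permutation. All 10 members, and the families of fixed lists of their relatives, were named; members, lists and rules were chosen with earlier results of these data known. The alternatives were RLE size factors, no filter, a replicate block, DESeq2 1.42.0, halved counts, the compared groups alone and each library left out.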

Additional observations from a re-analysis of the deposited data

Results flagged for a closer look

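The CytoD change differed with and without CK666 in 8 of the contractile genes by the interaction test of edgeR's quasi-likelihood fit. On the log2 scale the difference (with CK666 minus without) was 1.56 for Tagln (adjusted p = 0.000502), 1.13 for Cnn1 (0.0153), 0.45 for Cnn3 (0.0117), 1.00 for Myl9 (0.00587), 0.86 for Tpm1 (0.000324), 0.94 for Tpm2 (0.00393), 0.49 for Cald1 (0.024) and 0.56 for Smtn (0.00479). In Tagln the log2 change on adding CytoD was -0.58 in the presence of CK666 and -2.14 in its absence. In Cald1 it was 0.10 in the presence of CK666 and -0.39 in its absence, and its call was lost without CytoD+CK replicate 1, CytoD replicate 1 or 2, or Ctrl replicate 2, at adjusted p of 0.0531 to 0.0607.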

How the results depend on the processing

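The count of 9 contractile genes lower against Ctrl was the same for each treatment under every alternative run: RLE size factors, no filter, the replicate block, halved counts, the compared groups alone, DESeq2 and each library left out. Fitted on the compared groups alone, CytoD+CK against CK gave 459 genes and 1 contractile gene (Smtn) in place of 1570 and 4, and CK against CytoD gave 3558 genes in place of 5380, with the Tagln and Myl9 calls lost (adjusted p = 0.0915 and 0.0971). The causes were not tested. With 1 library left out, CytoD+CK against CK gave 745 to 2563 genes and 3 to 6 contractile genes, and the interaction 1094 to 3396 genes (1935 with all libraries) and 7 to 9 contractile genes. CK against CytoD gave 4 to 6 contractile genes and CytoD+CK against CytoD 5 to 7. Replicate numbers were not taken to pair the samples, because the labels tie them to no shared source and 4 of 18 pairs had a correlation over 0.1 (-0.0789 to 0.256). Of 12 libraries, 8 correlated best with their own number out of the 3 in use, a hint of pairing in the data. The sample titles carry the same numbers in all 4 groups but do not say what they stand for, so a paired design remains possible. With the replicate block, calls among all genes were 5212 for CytoD, 5652 for CK and 6299 for both against Ctrl, 4166 for both against CytoD, 1726 for both against CK, 5477 for CK against CytoD and 2078 for the interaction, and each count of contractile genes was as reported. Leaving out 1 library gave log2 ranges through 0 for differences that were not called: for CK against CytoD -0.0857 to 0.0611 (Smtn), -0.0040 to 0.2732 (Tpm2) and -0.2517 to 0.5851 (Myh11), for CytoD+CK against CK -0.2379 to 0.1306 (Cnn1) and -0.0002 to 0.1865 (Cald1), and for Myh11 -0.1157 to 0.7208 (CytoD against Ctrl) and -0.8082 to 0.0281 (CytoD+CK against CytoD). For CK against CytoD the Smtn difference was also -0.0247 (RLE), -0.0068 (no filter), -0.0199 (halved counts), -0.0161 (compared groups alone) and -0.0243 (DESeq2). DESeq2 called Cnn2 in the interaction (adjusted p = 0.0377) and Myl9 for CytoD+CK against CK (0.0299). With RLE scaling the median log2 change of all genes was at most 0.0166 in size in any comparison. With TMM it was 0.0386 for CytoD+CK against Ctrl. Depth limits Myh11, at 16 to 48 counts.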
